A study of Mus musculus with 22 samples.

Results

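The genes described here belong to families that attach ubiquitin to proteins, help to do so, or remove it again, although not every member is an active enzyme. They were taken as every array probe whose annotation gives a single gene symbol of the Ube2, Cul, Fbx, Rnf, Trim, Peli or Usp families, with Usp9y left out. This rule found 141 probes for 139 genes among the 10500 probes of the array. No measured value entered it, but it was set with earlier results of these data known. There were 24 probes for E2 conjugating enzymes, 5 for cullins, 26 for F-box proteins, 34 for RING finger proteins, 27 for TRIM proteins, 2 for Pellino proteins and 23 for ubiquitin-specific proteases. Ube2h and Usp9x had 2 probes each.

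Ubiquitin is passed from an activating enzyme to a conjugating enzyme (E2) and then, with the help of a ligase (E3), to a substrate, where chains of it mark the protein for the proteasome or change its activity. Cullins are scaffolds that join a RING subunit to an adaptor such as an F-box protein, whereas many RNF, TRIM and Pellino proteins carry their own RING domain, and ubiquitin-specific proteases cut ubiquitin off. In the closing neural tube this system controls, among others, cell-cycle regulators and patterning signals, and the oxidative stress sensor Keap1 works as the adaptor of a Cul3 ligase.

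All 22 samples were the anterior neural tube of mouse embryos lacking the folate receptor gene Folr2 (Folr2-/-), so the controls carried the same knockout as the exposed embryos. Dams received 2 intraperitoneal injections a day apart, either of water or of sodium arsenate, dosed as 9.6 mg of arsenic per kg of body weight. Embryos were taken at gestational day (GD) 8, hour 15 (GD8:15), GD9:00 or GD9:12, that is 3, 12 or 24 h past the second dose. GD8:15 had 4 control and 4 arsenic arrays, GD9:00 had 4 control and 3 arsenic arrays, and GD9:12 had 3 control and 4 arsenic arrays. The labels do not say which arrays came from separate dams, so the p-values cover only the spread among these samples. In such dissected tissue, fewer cells of a type and less RNA per cell cannot be told apart.

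Amplified RNA was hybridised to one-colour CodeLink arrays, and all levels given are log2 intensities after quantile normalisation, a step that gives every array the same distribution. Probes entered the tests with 2 or more values in every group and a mean intensity outside the lowest 25%, a filter that 7830 probes (74.6%) passed. Called means an adjusted p under 0.05 in limma, a linear model with moderated variances, with Benjamini-Hochberg adjustment over these 7830 probes. The median deposited intensity of an array lay between 123 and 291, and between 16 and 69 spots of an array had no measurement. Arrays of a group correlated with one another at a mean r between 0.870 and 0.971. All 14 probes for neural tube markers passed the filter, and heart, blood and mesenchyme markers were measured as well. The array codes in the sample titles fall into 4 series, and 7 of the 8 GD8:15 arrays belong to series without any later array. The remaining one, control replicate 3 at GD8:15, shares its series with all GD9:00 arrays and all but 1 of the GD9:12 arrays. Differences between GD8:15 and the later stages in the exposed embryos therefore cannot be told apart from the code series, whereas the step from GD9:00 to GD9:12 lies within 1 series except for control replicate 1 at GD9:12.

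The upstream sequences of 3 genes are shown because these were the members whose level changed from GD9:00 to GD9:12 in control and exposed embryos alike (limma, described with the results) and that had a promoter entry. Each is the 250 bases before a RefSeq start site (build GRCm38.p6), written 5′ to 3′ along the gene's strand, with GC boxes (GGGCGG, either strand) in capitals, of which the Rnf220 window has none. For Rnf114 and Trim39 the windows with the most GC boxes are shown. The table has a second start for Rnf114 (window chr2:167492395-167492644) without a GC box, and 2 more for Trim39, of which chr17:36272005-36272254 has none and the other nearly coincides with the one printed. The windows are chr2:167503193-167503442 (plus strand) for Rnf114, chr4:117375462-117375711 (minus strand) for Rnf220 and chr17:36271434-36271683 (minus strand) for Trim39.
Rnf114: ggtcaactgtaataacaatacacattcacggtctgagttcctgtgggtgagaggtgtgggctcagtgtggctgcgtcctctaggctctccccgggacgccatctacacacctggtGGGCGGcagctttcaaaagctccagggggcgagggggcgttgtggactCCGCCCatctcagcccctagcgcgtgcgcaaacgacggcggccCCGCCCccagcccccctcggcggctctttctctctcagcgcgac
Rnf220: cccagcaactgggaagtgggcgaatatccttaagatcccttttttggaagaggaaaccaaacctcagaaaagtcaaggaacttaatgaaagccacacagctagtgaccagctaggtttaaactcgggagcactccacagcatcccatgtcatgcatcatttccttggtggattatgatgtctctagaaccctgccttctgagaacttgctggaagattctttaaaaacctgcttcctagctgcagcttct
Trim39: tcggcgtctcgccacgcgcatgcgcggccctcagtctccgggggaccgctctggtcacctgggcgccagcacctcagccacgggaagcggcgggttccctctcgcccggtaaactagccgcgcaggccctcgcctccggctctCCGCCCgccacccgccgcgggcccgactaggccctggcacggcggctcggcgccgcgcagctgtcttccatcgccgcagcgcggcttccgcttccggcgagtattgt
Promoter windows were found for 101 of the 139 member genes. A GC box occurred in 81 of their 136 windows (59.6%), against 32.7% of all 32851 RefSeq mouse windows of this length. The antioxidant response element core TGACNNNGC, searched on both strands, occurred in 18 of the 136 windows (13.2%) and in 10.2% of all windows, and it was not in the 3 windows printed. The CCAAT box (CCAAT, both strands) occurred in 30.1% of member windows and in 33.8% of all. The cyclic AMP element TGACGTCA occurred in 1.47% of member windows and in 1.55% of all. These matches describe the letters of the windows only.

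Of the 141 member probes, 122 (86.5%) were bright enough to be tested. The 19 that were not had too low an intensity on average, and they were Cul1, Ube2d-ps, Ube2l6, Ube2v2, Fbxw5, Rnf13, Rnf111, Rnf112, Rnf115, Rnf128, Rnf215, Trim10, Trim15, Trim25, Usp8, Usp12, Usp20, Usp21 and Usp27x. The tested members comprised 21 E2 enzymes, 4 cullins, 25 F-box proteins, 28 RING finger proteins, 24 TRIM proteins, 2 Pellino proteins and 18 ubiquitin-specific protease probes. The median percentile of mean intensity among all probes was 60.8 for the members, 74.5 for the E2 enzymes and 50.3 for the TRIM proteins. The 2 probes of Ube2h correlated at r = -0.332 over the 22 arrays and those of Usp9x at r = -0.138. The median r over the 91 genes of the array with 2 probes was 0.0387, so each member value stands for its probe.

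The first question was whether arsenic changed these genes 3 h after the second injection. At GD8:15, none of the 122 members was called, as none of all tested probes was (percent called 0), and 8 members had an unadjusted p under 0.05 (6.56%, against 7.29% of all probes). The members' log2 differences ran from -0.90 to 0.85 with a median of 0.00157, against a median of 0.000506 over all probes. The median standard error of a member's log2 difference was 0.188.

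Trim39, a TRIM ligase known to act on regulators of the anaphase-promoting complex, had the lowest p at this stage. Its log2 intensities were 8.21, 8.39, 8.72 and 8.71 in the controls and 7.83, 8.27, 7.73 and 8.02 after arsenic. Exposed embryos were lower on average, but one exposed array lay above the lowest control. All exposed GD8:15 arrays share a code series with control replicates 2 and 4 alone, and those, at 8.39 and 8.71, were above every exposed array. The difference was -0.54 ± 0.157 (SE; limma adjusted p 0.399).

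The arrays of the arms did not overlap for 4 members at GD8:15 (3.28%, against 3.84% of all tested probes), 1 of them higher after arsenic (1.92% of all probes) and 3 lower (1.93%). Fbxo33, an F-box protein, read 9.83, 9.60, 9.95 and 9.52 in the controls and 9.13, 9.20, 8.12 and 9.20 after arsenic, and Fbxo28, another F-box protein, read 8.17, 8.26, 8.56 and 8.00 against 7.94, 7.96, 7.44 and 7.87. Every exposed array was below every control for both genes. Their log2 differences were -0.81 ± 0.293 and -0.45 ± 0.158 (SE), with limma adjusted p 0.565 and 0.558. Ube2t, the E2 enzyme of the Fanconi anaemia pathway, was also lower on every exposed array (-0.54 ± 0.233, limma adjusted p 0.626). In the other direction stood Fbxo6, which recognises glycoproteins for disposal. It read 8.00, 7.94, 7.87 and 7.99 in the controls and 8.51, 8.49, 8.40 and 8.01 after arsenic. All exposed arrays were above the controls, replicate 4 by only a narrow margin (0.40 ± 0.142 SE, limma adjusted p 0.558). The other members of lowest p were Fbxo32 (-0.25) among the lower and Usp2 (0.85), Rnf11 (0.74), Rnf4 (0.44) and Rnf14 (0.12) among the higher.

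Other measurements separated the GD8:15 arms too. The summed level of the 14 neural tube marker probes was 12.8 to 12.9 in the controls and 12.0 to 12.3 after arsenic, and that of the 10 tested heart and muscle markers was 14.3 to 15.2 against 12.8 to 13.8. Xist, the RNA that coats the silenced X chromosome, read 7.02 to 7.10 in the controls and 7.86 to 9.06 after arsenic, and Eif2s3y, on the Y chromosome, read 7.66 to 7.79 against 7.11 to 7.30. The part of tissue composition and embryo sex in the member values was not tested. None of the 6 tested X-linked member probes (Cul4b, Ube2a, Rnf113a1, Usp26 and both Usp9x probes) was among the separated ones at this stage, and their differences lay between -0.28 and 0.13.

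At GD9:00, 12 h after the second injection, again no member and no probe was called (percent called 0). Unadjusted p was under 0.05 for 16 members (13.1%, against 12.6% of all probes), and the median difference was -0.02 against 0.01 for all probes. The arms did not overlap for 8 members (6.56%, against 9.63% of all tested probes), 1 of them higher and 7 lower after arsenic (2.41% and 7.22% of all probes). The higher one was Fbxo16, and the lower ones were Trim13, Ube2g2, Trim2, Rnf4, Usp54, Fbxo3 and Rnf32, of which Usp54 and Rnf32 were named after their values were seen.

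Rnf138, a RING ligase known from DNA double-strand break repair, had the largest difference of the members at this stage. Its log2 intensities were 8.11, 10.24, 8.40 and 8.49 in the controls and 10.35, 10.15 and 10.24 after arsenic. The exposed arrays lay together, above every exposed array of the earliest stage (log2 difference 0.67, limma adjusted p 0.376). They overlapped the exposed arrays of the last stage (-0.23 from this stage to the last, limma adjusted p 0.855). Of the controls, 3 lay far below, and control replicate 2 lay with the exposed arrays. The difference was 1.43 ± 0.381 (SE; 2.7-fold, limma adjusted p 0.243). Without control replicate 2 it was 1.91 (limma adjusted p 0.002). With array weights estimated from the spread of these same values it was 1.73 (limma adjusted p 0.00667). Neither fit is an independent test, because leaving out the only control at the exposed level had to widen the difference and the weights come from the same data. Control replicate 2 also stood apart for Peli1, Trim28, Trim69 and one Usp9x probe.

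The members of lowest p on the lower side at GD9:00 had their highest control mean at that stage. The same GD9:00 control arrays enter both comparisons, so picking members lower after arsenic favours those with high controls there. Trim13, a ligase of the endoplasmic reticulum, read 7.59, 7.57, 7.33 and 7.50 in the controls and 7.20, 7.22 and 7.27 after arsenic, with no overlap (-0.27 ± 0.0728, limma adjusted p 0.243). Fbxw7, the F-box protein that recognises phosphorylated cyclin E and Myc, read 8.43, 8.45, 7.63 and 8.17 against 7.76, 7.60 and 7.16, where 1 control lay within the exposed range (-0.66 ± 0.182, limma adjusted p 0.243). Ube2e3, an E2 enzyme, read 9.47, 10.15, 8.99 and 9.41 against 8.85, 9.02 and 7.40, with 1 exposed array just inside the control range (-1.08 ± 0.371, limma adjusted p 0.284). Ube2g2, the E2 enzyme of endoplasmic reticulum-associated degradation, had a difference of -0.33 ± 0.112 (limma adjusted p 0.284). On the intensities as deposited, without the quantile step, the median of all probes shifted by 0.43 between these arms, and the differences of Trim13 and Ube2g2 turned to 0.33 and 0.27.

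The other members of lowest p at GD9:00 were Trim2 (-0.67) among the lower and Ube2h (0.52 and 0.09 for its 2 probes), Fbxo17 (0.23), Fbxo16 (0.73) and Trim29 (0.90) among the higher. Xist read 9.77 to 10.4 on the 3 exposed arrays, 7.10 to 7.20 on 3 controls and 8.71 on the other control, and its part in these differences was not tested.

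At GD9:12, 24 h after the second injection, no member had even an unadjusted p under 0.05, against 100 of all 7830 probes (1.28%), and limma called none (percent called 0). The median difference was -0.02 for the members and -0.01 for all probes. The arms did not overlap for 4 members (3.28%, against 5.01% of all tested probes, 2.17% higher and 2.84% lower), with Fbxo33 higher and Fbxo15, Usp9x (1 of its 2 probes) and Trim62, the last named after its values were seen, lower after arsenic. Fbxo33 read 10.51, 10.59 and 10.74 in the controls and 11.33, 10.84, 10.91 and 11.03 after arsenic, the opposite order to GD8:15 (0.42 ± 0.316 SE). The members of lowest p beside these had differences of -0.27 for Trim12a, 0.38 for Usp16, -0.28 for Fbxo25, -0.47 for Trim7, 0.49 for Ube2k, 0.12 for Trim33, 0.25 for Ube2d2a and -0.10 for Trim54, all at limma adjusted p 1. Marker sums that did not overlap between the arms at GD9:12 were those of neural tube (13.7 to 14.2 in controls and 13.4 to 13.7 after arsenic, or 13.71 and 13.65 at the nearest arrays), endothelium (10.4 to 10.5 and 10.6 to 10.7) and surface ectoderm (10.2 to 10.4 and 10.4 to 10.6, nearest arrays 10.37 and 10.39). Their part in the member values was not tested.

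Averaged over the 3 stages, 6 members had an unadjusted p under 0.05 (4.92%, against 5.72% of all probes), and none was called by limma (percent called 0; lowest adjusted p 0.864). The averages of lowest p were -0.12 for Trim13, -0.30 for Fbxo25, 0.21 for Fbxo6, -0.22 for Trim39 and -0.23 for Fbxw7. A limma F test of whether the arsenic difference changed between stages gave an unadjusted p under 0.05 for 8 members (6.56%, against 6.45% of all probes) and no call (percent called 0; lowest adjusted p 0.692, for Rnf138). For Fbxo33, whose difference turned from lower to higher, the F test gave an adjusted p of 0.746 in limma. Trim2, Usp16, Ube2e3 and Fbxw7, all lower after arsenic at GD9:00, followed Rnf138 in that test with limma adjusted p 0.733. The counts of members below the unadjusted threshold stayed near those of all probes in each of these comparisons.

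**Figure D1:**
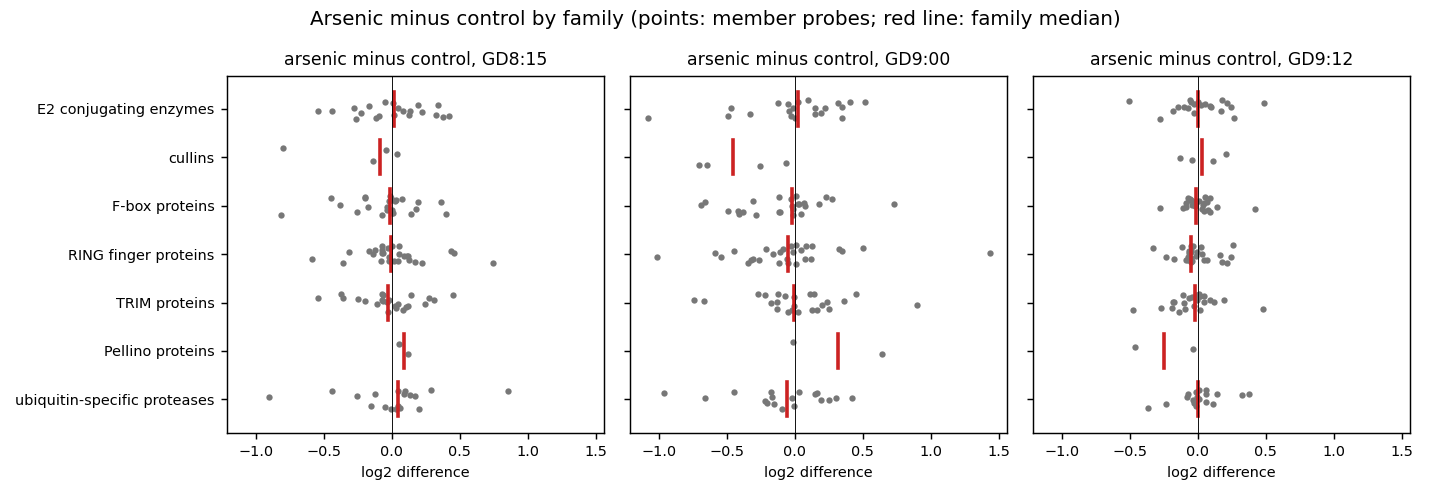
Log2 difference of arsenic minus control (horizontal axis) for the 122 tested member probes by family (vertical axis) at each stage, with a red line at each family's median. The points lie on both sides of 0 in the families of more than 4 probes, and Rnf138 at GD9:00 stands farthest out at 1.43.

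**Figure D2:**
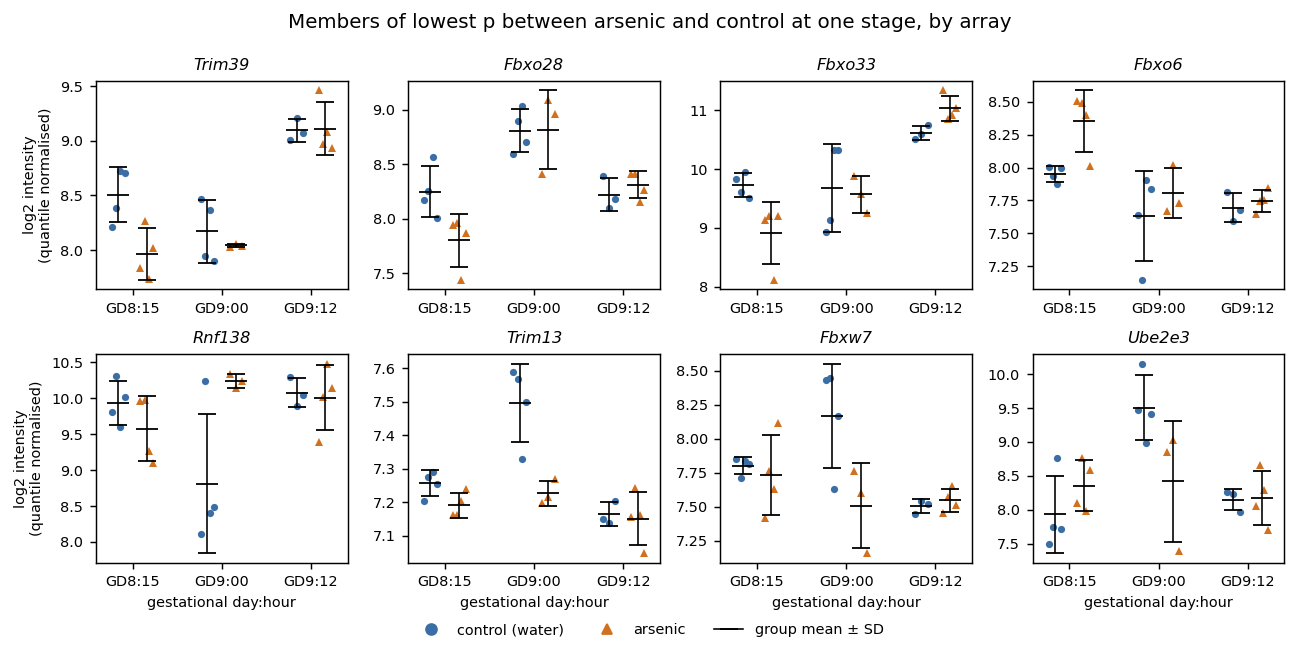
Log2 intensity (vertical axis, a separate range in each panel) of 8 members at the 3 stages (horizontal axis), with one point per array, circles for control, triangles for arsenic, and black bars for the group mean ± SD. Control replicate 2 at GD9:00 lies with the exposed arrays for Rnf138 at 10.24, and the exposed Fbxo33 arrays lie below the controls at GD8:15 and above them at GD9:12.

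Comparisons between stages, in contrast, gave calls in both arms, although those with GD8:15 mostly also compare different code series. Between GD8:15 and GD9:00, limma called 22 of the 122 members in the controls (18.0%; percent called over all probes 15), of which 15 rose and 7 fell (percent called 8.15 and 6.83). In the exposed embryos 7 were called (5.74%; percent called 4.21), 6 rising and 1 falling (2.4 and 1.81). From GD9:00 to GD9:12, 18 members were called in the controls (14.8%; percent called 11.2), 6 rising and 12 falling (3.82 and 7.42), and 6 in the exposed embryos (4.92%; percent called 3.88), 3 in each direction (1.9 and 1.98). From GD8:15 to GD9:12, 12 were called in the controls (9.84%; percent called 7.71), 6 each way (3.77 and 3.95), and 21 in the exposed embryos (17.2%; percent called 13.8), 12 rising and 9 falling (7.23 and 6.59).

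The members' median log2 differences were -0.01, -0.05 and -0.03 in the controls for these steps in turn, against -0.02, 0.03 and -0.01 over all probes. They were -0.03, -0.02 and -0.02 in the exposed embryos, against -0.02, -0.02 and -0.04. In at least 1 of the 6 comparisons 43 members were called (35.2%, against 30.4% of all probes), among them 8 of 21 E2 enzymes, 1 of 4 cullins, 11 of 25 F-box proteins, 4 of 28 RING finger proteins, 10 of 24 TRIM proteins, 1 of 2 Pellino proteins and 8 of 18 ubiquitin-specific protease probes.

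Tissue markers differed between the stages as well. From GD8:15 through GD9:00 to GD9:12 the summed neural tube markers of the controls read 12.8 to 12.9, 12.8 to 13.4 and 13.7 to 14.2, and the 5 blood markers 12.2 to 13.0, 9.76 to 12.7 and 14.0 to 15.5. The 6 tested surface ectoderm markers read 11.01 to 11.25, 10.5 to 11.2 and 10.2 to 10.4. The exposed embryos had blood marker sums of 10.98 to 11.9 at GD9:00 and 14.1 to 15.6 at GD9:12. Xist on the exposed arrays read 7.86 to 9.06, 9.77 to 10.4 and 6.93 to 7.15 at the 3 stages in turn, without overlap. On the controls it read 7.02 to 7.10, 7.10 to 8.71 and 6.88 to 11.3. The part of tissue composition and embryo sex in the members' stage differences was not tested.

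The balance of rising and falling calls depended on the scaling. The mean deposited intensity of an array was close to 600.0 for the earliest stage, 500.0 for the middle one and 1000.0 for the last, so that scaling itself differs by stage. On the intensities as deposited, the median of all probes moved by -0.49 from GD8:15 to GD9:00 and by 0.79 from GD9:00 to GD9:12 in the controls, and by -0.26 and 0.33 in the exposed embryos. The calls were then 5 rising and 37 falling, and 74 rising and 2 falling, in the controls, and 1 and 1, and 30 and 0, in the exposed embryos. From GD8:15 to GD9:12 they were 21 rising and 3 falling in the controls and 23 and 3 in the exposed embryos. These counts stand without the share of all probes called under that scaling, so they do not set the members apart from the whole array. Directions given for single members are therefore relative to the other probes of the same array. With a block on code series, 2 members were called in the controls from GD8:15 to GD9:00, namely Rnf114, the only 1 of the 22 still called, and Rnf10, which was not called without the block. From GD9:00 to GD9:12 there were 9, including Rnf32, which was not called without the block, and from GD8:15 to GD9:12 there was 1 (Usp10). In the exposed embryos 0, 4 and 0 were called. Under this block, comparisons with GD8:15 rest on control replicate 3, the only GD8:15 array of the later series. All exposed GD8:15 arrays lie in 1 series and all later exposed arrays in another. For them the block borrows the step between series from the GD8:15 controls. Block values for exposed embryos from GD8:15 therefore do not separate code series from stage. Rnf10 and Rnf32 were named after their values were seen.

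Control and exposed embryos share no array, but the arms share code series, so that a step between series would move both alike. From GD8:15 to GD9:00, 6 members were called in both with the same sign (27.3% of those called in controls and 85.7% of those in exposed embryos, against 19.4% and 69.1% over all tested probes). They were Rnf114, Rnf220, Fbxo28, Ube2v1 and Usp5, which rose, and Trim44, which fell. From GD9:00 to GD9:12 they were Trim39 and Usp42, which rose, and Rnf114 and Rnf220, which fell (22.2% and 66.7%, against 22.2% and 64.1%). From GD8:15 to GD9:12 there were 10 (83.3% and 47.6%, against 68.4% and 38.2%), of which Usp9x, Usp29, Trim39, Rnf114 and Fbxw4 rose and Trim28, Usp10, Trim44, Usp39 and Fbxo21 fell. No member was called in opposite directions. Across the 122 member probes, which share arrays within each arm and are not independent, the log2 differences of the arms correlated at r = 0.676, 0.699 and 0.843 for the 3 comparisons. Over all tested probes r was 0.601, 0.622 and 0.769.

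**Figure D3:**
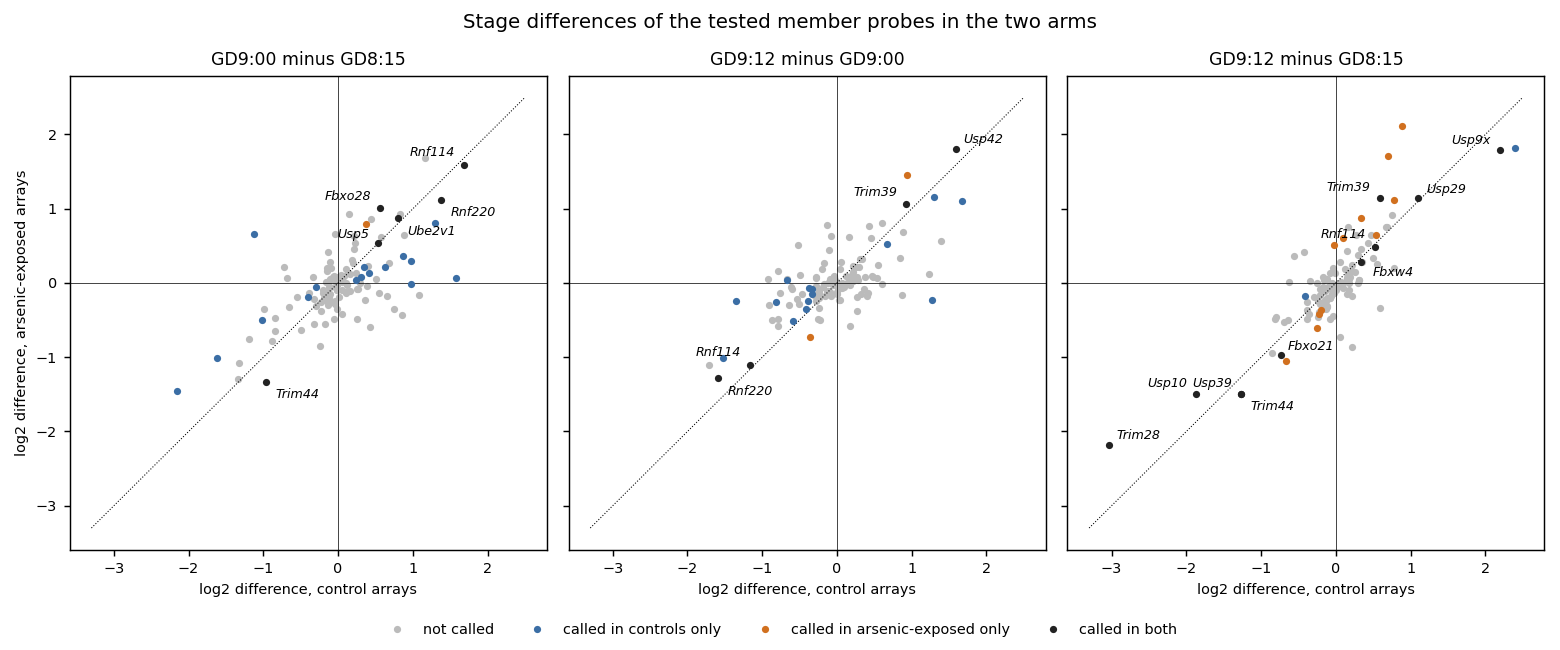
Log2 difference between stages in the control arrays (horizontal axis) against that in the exposed arrays (vertical axis) for the 122 tested member probes, with the dotted line marking equal differences. Black points were called in both arms (6, 4 and 10 members from left to right), blue in controls only, orange in exposed embryos only and grey in neither, and every black point lies in the lower left or upper right quadrant.

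Among the E2 enzymes, 3 of 21 rose from GD8:15 to GD9:00 in the controls and none fell (percent called over all probes 8.15 and 6.83). Ube2v1, a catalytically inactive E2 variant that pairs with Ube2n to build non-degradative chains, read 8.03, 7.59, 7.66 and 7.57 in the GD8:15 controls and 9.23, 8.88, 8.04 and 7.89 at GD9:00. The control stages overlapped by 1 array, whereas the exposed arrays moved from between 7.31 and 7.71 to between 8.39 and 8.53 without overlap. The log2 rise was 0.80 ± 0.224 (SE; limma adjusted p 0.023) in the controls and 0.87 ± 0.242 (limma adjusted p 0.0483) in the exposed embryos, and the latter call was lost on leaving out any 1 of the 7 arrays.

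Ube2e3 and Ube2g2 were called in the controls alone, and the F test of a changing arsenic difference called neither (limma adjusted p 0.733 and 0.76). Ube2e3 read 7.49, 7.75, 8.77 and 7.72 in the GD8:15 controls and 8.99 to 10.15 at GD9:00, a rise of 1.57 ± 0.344 (SE; 2.98-fold, limma adjusted p 0.00616). The array of the shared code series, replicate 3, was the highest GD8:15 control at 8.77, and with code series as a block the rise was 0.74 (limma adjusted p 0.831). Ube2g2 rose by 0.63 ± 0.104 (SE; limma adjusted p 0.000808), from between 6.86 and 7.05 to between 7.39 and 7.91. From GD9:00 to GD9:12 both fell in the controls, Ube2e3 by 1.35 and Ube2g2 by 0.37 on the log2 scale (limma adjusted p 0.0244 and 0.04), and so did Ube2t, by 0.82 (limma adjusted p 0.0416). Of the 7 fits leaving out 1 array, 4 lost this Ube2e3 call (-1.52 to -1.13) and 5 the Ube2t call (-1.12 to -0.62). In the exposed embryos Ube2n (1.12) and Ube2d2a (0.61) rose and Ube2e1 fell by 0.42 from GD8:15 to GD9:12, where code series and stage cannot be told apart. Ube2n and Ube2e1 were named after their values were seen.

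Of the cullins, Cul3, the scaffold that Keap1 joins to its targets, was called once. Its exposed arrays read 9.58, 9.98, 8.88 and 10.07 at GD8:15 and 10.97, 11.87, 11.41 and 11.08 at GD9:12, and the stages did not overlap. The rise was 1.70 ± 0.51 (SE; 3.26-fold, limma adjusted p 0.032), and the call was lost in 5 of the 8 fits that left out 1 array (values from 1.47 to 1.86). The block on code series gave 0.44 (limma adjusted p 0.979), and the controls differed by 0.70 (limma adjusted p 0.496). Cul4b, Cul5 and Cul7 were not called in any stage comparison, with limma adjusted p of at least 0.0995, and Cul1 was too dim to test.

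Among the 25 F-box proteins, Fbxo28 rose from GD8:15 to GD9:00 in both arms, by 0.56 ± 0.158 (SE; limma adjusted p 0.0236) in the controls and 1.01 ± 0.17 (limma adjusted p 0.00226) in the exposed embryos. Controls read 8.17, 8.26, 8.56 and 8.00 at GD8:15 and 8.59, 8.90, 9.04 and 8.70 at GD9:00, and exposed arrays went from between 7.44 and 7.96 to between 8.41 and 9.08. The stages did not overlap in either arm. The control array of the shared code series was the highest at GD8:15, just under the lowest at GD9:00.

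Fbxo33 had the largest stage difference of an F-box gene in the exposed embryos. Its exposed arrays read 9.13, 9.20, 8.12 and 9.20 at GD8:15, then 9.88, 9.57 and 9.25 at GD9:00, then 11.33, 10.84, 10.91 and 11.03 at GD9:12. The level was highest on all GD9:12 arrays, with a rise from GD8:15 of 2.11 ± 0.293 (SE; 4.33-fold, limma adjusted p 0.000196) that was called in each of the 8 fits leaving out 1 array. The block on code series gave 1.73 (limma adjusted p 0.343). The step from GD9:00, within 1 code series, was 1.46 ± 0.316 (SE; limma adjusted p 0.0152), and without exposed replicate 3 at GD9:00 it was 1.31 (limma adjusted p 0.0712). In the controls the difference from GD8:15 was 0.89 (limma adjusted p 0.099).

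Fbxw4 and Fbxo21 were called from GD8:15 to GD9:12 in both arms, with rises of 0.34 and 0.28 for Fbxw4 and falls for Fbxo21 of -0.74 and -0.97 in controls and exposed embryos. Without control replicate 2 at GD9:12 the Fbxw4 rise in the controls was 0.27 (limma adjusted p 0.098), and 5 of 7 such fits lost the Fbxo21 call in the controls (-0.84 to -0.62). Fbxo32, the muscle atrophy ligase also called atrogin-1, fell by 0.41 in the controls over that interval (limma adjusted p 0.0191; lost in 4 of 7 such fits, -0.47 to -0.34), while the summed heart and muscle markers went from 14.3 to 15.2 down to 12.1 to 13.0. The part of those cells in the Fbxo32 value was not tested. Fbxw7, in the controls, fell by 0.66 from GD9:00 to GD9:12 (limma adjusted p 0.0239), and Fbxo3 rose by 0.98 from GD8:15 to GD9:00 (limma adjusted p 0.0191; lost in 3 of 8 such fits, 0.86 to 1.07).

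Among the RING finger proteins, the family with the fewest stage calls for its size, Rnf114 and Rnf220 rose and fell again in both arms. Rnf114, a zinc finger ligase whose upstream window is printed above, had log2 intensities of 7.31, 7.39, 7.31 and 7.13 in the GD8:15 controls, 9.35, 8.70, 8.98 and 8.85 at GD9:00 and 7.82, 7.67 and 7.92 at GD9:12. The exposed arrays read 7.36, 7.47, 7.44 and 7.22, then 9.10, 9.09 and 8.68, then 7.74, 8.17, 7.90 and 7.61. Every GD9:00 array was above every array of the other stages in both arms, and the control of the shared code series, at 7.31, lay with the other GD8:15 arrays.

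The Rnf114 rise to GD9:00 was 1.68 ± 0.141 (SE; 3.21-fold, limma adjusted p 6.95e-07) in the controls and 1.59 ± 0.153 (3.00-fold, limma adjusted p 8.84e-06) in the exposed embryos. Under a block on code series these were 1.66 (limma adjusted p 0.00432) and 1.53 (limma adjusted p 0.114). The fall to GD9:12 was -1.16 ± 0.153 (limma adjusted p 0.000169) and -1.10 ± 0.153 (limma adjusted p 0.000619). On the intensities as deposited the falls were -0.50 (limma adjusted p 0.0665) and -0.47 (limma adjusted p 0.18), beside the opposite shift of all probes. From GD8:15 to GD9:12 it rose by 0.52 and 0.48 (limma adjusted p 0.0429 and 0.0293), and the control call was lost on leaving out any 1 of the 7 arrays (0.46 to 0.58).

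Rnf220, a ligase known to act on Gli transcription factors in the neural tube, read 9.50, 9.73, 9.99 and 9.84 in the GD8:15 controls, 11.18, 11.46, 10.99 and 10.94 at GD9:00 and 9.66, 8.87 and 10.14 at GD9:12. The exposed arrays read 9.62, 9.74, 9.89 and 10.48, then 11.30, 10.45 and 11.43, then 10.05, 9.54, 9.76 and 9.75. GD9:00 was highest throughout except that 1 exposed GD8:15 array overlapped the lowest exposed GD9:00 array.

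Its rise was 1.38 ± 0.254 (SE; 2.6-fold, limma adjusted p 0.00203) in the controls and 1.12 ± 0.275 (limma adjusted p 0.0249) in the exposed embryos, where 4 of 7 fits leaving out 1 array lost the call (0.95 to 1.43). With code series as a block the rises were 1.16 and 0.92 (limma adjusted p 0.363 and 0.922). The fall to GD9:12 was -1.59 ± 0.275 (3.00-fold, limma adjusted p 0.00145) in the controls and -1.28 ± 0.275 (limma adjusted p 0.0144) in the exposed embryos. On the intensities as deposited the fall in the exposed embryos was -0.07 (limma adjusted p 0.903), and 2 of 7 fits leaving out 1 array lost the call, among them that without exposed replicate 1 at GD9:00 (-1.17, limma adjusted p 0.0776). Rnf138 fell by 1.12 to GD9:00 in the controls and rose by 1.27 to GD9:12 (limma adjusted p 0.0393 and 0.0379), and both calls were lost in 6 of the fits leaving out 1 array.

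Among the TRIM proteins, Trim39 rose late in both arms. It read 8.47, 7.95, 8.36 and 7.90 in the GD9:00 controls and 9.00, 9.21 and 9.07 at GD9:12, and 8.03, 8.06 and 8.04 and then 9.46, 8.97, 9.08 and 8.94 in the exposed embryos. The stages did not overlap in either arm. The rise was 0.92 ± 0.169 (SE; 1.9-fold, limma adjusted p 0.00215) in the controls and 1.07 ± 0.169 (2.1-fold, limma adjusted p 0.00233) in the exposed embryos. Each of the 7 fits leaving out 1 array kept the call in both arms, as did code series as a block (limma adjusted p 0.0094 and 0.00396).

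Trim28, the corepressor of KRAB zinc finger proteins, had the largest fall among the members called. Its controls read 11.89, 12.49, 12.89 and 12.51 at GD8:15, then 12.49, 8.81, 11.75 and 11.44 at GD9:00, then 8.82, 9.69 and 9.72 at GD9:12, and the exposed arrays 13.58, 12.31, 10.89 and 11.50, then 11.44, 11.33 and 10.21, then 9.26, 9.99, 10.42 and 9.88. No GD9:12 array reached any GD8:15 array. The lowest control at each later stage, 8.81 and 8.82, lay in a run of neighbouring probes that read low on that array, and with such runs masked the control fall was -2.74 (limma adjusted p 0.00584). The fall was -3.04 ± 0.682 (SE; 8.2-fold, limma adjusted p 0.00992) in the controls and -2.18 ± 0.632 (4.53-fold, limma adjusted p 0.0275) in the exposed embryos. Without control replicate 1 at GD9:12 it was -2.74 (limma adjusted p 0.0534), 5 of 8 such fits lost the call in the exposed embryos (-2.59 to -1.68), and with code series as a block it was -3.18 and -2.57 (limma adjusted p 0.252 and 0.59).

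Trim44, a TRIM protein without a RING domain, read 8.64, 8.77, 8.95 and 8.70 in the GD8:15 controls and 7.55, 7.46 and 7.49 at GD9:12. Exposed arrays went from 9.31, 8.51, 10.14 and 8.07 to 7.48, 7.72, 7.52 and 7.35, so the stages did not overlap in either arm. The falls were -1.27 ± 0.306 (SE; limma adjusted p 0.0157) and -1.49 ± 0.283 (limma adjusted p 0.0021), and 2 of the 7 control fits leaving out 1 array lost the call (-1.32 to -1.19). With code series as a block they were -1.48 and -1.71 (limma adjusted p 0.248 and 0.339). Trim59 rose by 1.30 and Trim3 fell by 1.01 from GD8:15 to GD9:00 in the controls (limma adjusted p 0.00993 and 0.00191). Under that block those differences were 0.81 and -1.22 (limma adjusted p 0.74 and 0.0927).

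Peli1, a Pellino ligase of Toll-like and interleukin-1 receptor signalling, rose by 2.39 ± 0.655 (SE; 5.26-fold, limma adjusted p 0.0306) in the controls from GD8:15 to GD9:12. It read 8.31, 8.41, 8.09 and 7.80 and then 10.23, 11.26 and 10.15, without overlap, but the call was lost on leaving out any 1 of the 7 arrays (2.01 to 2.57). The exposed embryos differed by 1.81 (limma adjusted p 0.0539).

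Of the 18 tested probes for ubiquitin-specific proteases, 4 were called in both arms from GD8:15 to GD9:12. Among all 122 members these were 10, and among all 7830 tested probes 413. The family was not tested as a set. Usp9x, an X-linked protease of beta-catenin and other substrates, read 10.48, 9.93, 9.89 and 8.21 in the GD8:15 controls, 10.55, 10.29, 10.76 and 10.45 at GD9:00 and 11.73, 11.95 and 11.77 at GD9:12 on 1 of its probes. On the exposed arrays it went from 9.95, 9.53, 10.17 and 8.96 through 10.36, 10.16 and 10.37 to 11.41, 11.48, 11.25 and 11.66. All GD9:12 arrays were above all earlier ones. The rise was 2.19 ± 0.363 (SE; 4.56-fold, limma adjusted p 0.00133) and 1.79 ± 0.336 (3.47-fold, limma adjusted p 0.00194), and with code series as a block 1.97 and 0.98 (limma adjusted p 0.0964 and 0.699).

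The other Usp9x probe did not follow, with differences of -0.18 and -0.30 (limma adjusted p 0.898 and 0.767), so the rise is that of a single probe. Xist read 11.3 on control replicate 1 at GD9:12 and 6.88 to 7.15 on the other GD9:12 arrays, and the rising Usp9x probe read 11.25 to 11.95 across them. Control replicate 1 is also the only GD9:12 array outside the shared code series. The part of embryo sex in the Usp9x values was not tested.

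Usp10, which removes ubiquitin from the tumour suppressor Trp53, fell. Controls read 10.63, 10.78, 10.61 and 11.21 at GD8:15, then 8.23, 9.58, 9.58 and 9.38 at GD9:00, then 9.88, 8.46 and 8.48 at GD9:12, and exposed arrays 10.71, 9.93, 10.29 and 10.53, then 9.37, 9.37 and 9.33, then 9.18, 8.77, 8.97 and 8.55. Every later array was below every GD8:15 array of its arm, the control of the shared code series included. The fall to GD9:12 was -1.87 ± 0.333 (SE; 3.64-fold, limma adjusted p 0.00244) in the controls and -1.50 ± 0.308 (2.82-fold, limma adjusted p 0.0036) in the exposed embryos, and with code series as a block -2.14 (limma adjusted p 0.0464) and -1.12 (limma adjusted p 0.506).

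Usp39, a splicing factor that resembles the proteases but lacks their activity, fell in the last 12 h in the controls, from 10.15, 9.76, 8.99 and 9.39 to 8.07, 8.09 and 7.98. The fall was -1.52 ± 0.315 (SE; 2.88-fold, limma adjusted p 0.00495), was called in each of the 7 fits leaving out 1 array, and was -1.53 with code series as a block (limma adjusted p 0.0188). From GD8:15 it was -1.27 in the controls and -1.49 in the exposed embryos (limma adjusted p 0.0183 and 0.00254), and 4 of 7 fits leaving out 1 array lost the control call (-1.46 to -1.02).

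Usp42 dipped at GD9:00. Controls read 10.90, 10.28, 10.15 and 9.84, then 8.16, 8.04, 8.41 and 7.97, then 10.33, 9.35 and 9.54, and GD9:00 did not overlap either neighbour. The fall was -2.15 ± 0.46 (SE; 4.44-fold, limma adjusted p 0.00552) and the later rise 1.60 ± 0.497 (limma adjusted p 0.0451), with a rise of 1.81 ± 0.497 in the exposed embryos (limma adjusted p 0.0482). Both rises lost their call on leaving out any 1 of the 7 arrays. Usp29, an imprinted gene beside Peg3, rose by 1.09 and 1.14 from GD8:15 to GD9:12 (limma adjusted p 0.025 and 0.00849). The control call was lost in 6 of 7 fits leaving out 1 array (0.91 to 1.20). Usp5, which dismantles unanchored chains and was named after its values were seen, rose by 0.53 and 0.54 from GD8:15 to GD9:00 (limma adjusted p 0.00352 and 0.0122).

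**Figure D4:**
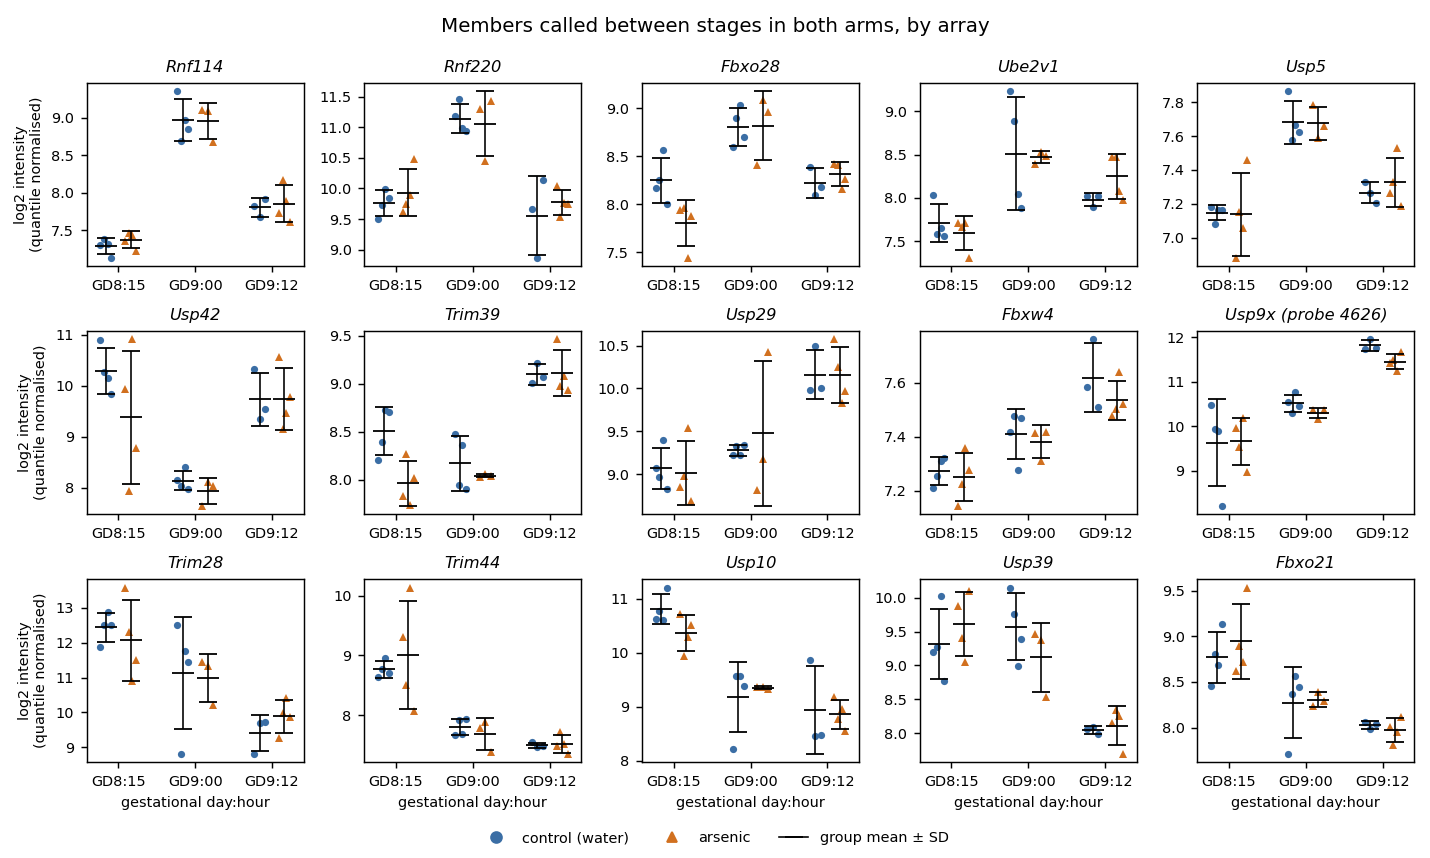
Log2 intensity (vertical axis, a separate range in each panel) by stage (horizontal axis) for the 15 member probes called between stages in both arms, with one point per array, circles for control, triangles for arsenic, and black bars for the group mean ± SD. Rnf114 lies above 8.6 on every GD9:00 array and below 8.2 on all others, and Usp9x (1 probe) is highest on the GD9:12 arrays, from 11.25 to 11.95.

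Other genes of the pathway, in 7 lists of E1 enzymes, ubiquitin-like proteins, cullin partners, HECT ligases, other RING ligases, other deubiquitinases and ubiquitin receptors with 93 tested probes, gave no call for arsenic either. In the controls 13 of the 93 rose and 6 fell from GD8:15 to GD9:00 (percent called over all probes 8.15 and 6.83). From GD9:00 to GD9:12, 4 rose and 11 fell (3.82 and 7.42). From GD8:15 to GD9:12, 7 rose and 4 fell (3.77 and 3.95). In the exposed embryos 3 rose and 1 fell (2.4 and 1.81), none rose and 1 fell (1.9 and 1.98), and 11 rose and 5 fell (7.23 and 6.59). Skp2, the F-box protein that targets the cell-cycle inhibitor Cdkn1b and whose symbol lies outside the family pattern, rose by 3.79 to GD9:00 in the controls (13.9-fold, limma adjusted p 8.89e-07) and by 3.02 in the exposed embryos (limma adjusted p 7.15e-05), and its control level fell by 2.87 afterwards (limma adjusted p 0.00014). Keap1 rose by 1.63 and 1.36 from GD8:15 to GD9:12 (limma adjusted p 0.00331 and 0.00381). The block on code series and the fits leaving out 1 array were not examined for these genes outside the member families. Their differences from GD8:15 carry the same code series limit as those of the members.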

How the data were processed

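Each of the 22 samples was amplified RNA on a one-colour array of 10500 probes, 6 groups in all. The authors deposited 1 linear intensity per probe and array; arrays of a stage share 1 mean, which differs between stages, and the software and background correction are not given in the sources used here. No column was left unmapped (0). Intensities of at most 2, which stand for a missing measurement (838 values), were removed, and the rest was taken to log2 and quantile normalised with limma 3.58.1 in R 4.3.3. Group means were fitted over all arrays with eBayes, with Benjamini-Hochberg adjustment over the 7830 tested probes. One gene symbol was given for 9378 probes, several for 8 and none for 1114, and all 141 member probes matched RefSeq by gene identifier. Members and gene lists were chosen with earlier results of these data known. Named were the members of lowest p in each arsenic comparison, those of largest difference among the called in each stage comparison, genes with more than 1 probe and cullins. Alternatives covered scaling, filter, missing values, array weights, code series and single arrays. Scripts were tested on simulated data. Figures were drawn with Python 3.11.15 and matplotlib 3.10.9.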

Additional observations from a re-analysis of the deposited data

Results flagged for a closer look

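In groups of 4 arrays, 14 of the 216 sets of values tested for the named members held 1 array whose gap to the others exceeded Dixon's 95% critical value for 4 values, or 6.48%, where chance gives about 1 in 20. At GD8:15, Rnf11 read 7.172 on control replicate 1 against 8.434 to 8.57 on the others, and Cul1 read 6.989 on control replicate 4. Exposed replicate 3 at that stage was low for Fbxo28 (7.441) and Fbxo33 (8.122), members whose arms did not overlap there. Exposed replicate 4 was high for Rnf14 (7.932) and low for Fbxo17 (7.631) and Ube2v1 (7.311). At GD9:00, control replicate 2 read 7.357 for Peli1, against 9.822 to 10.12 on the others, and 11.51 for 1 Usp9x probe, against 7.536 to 7.77. Control replicate 1 was low for Usp10 (8.228) and for 1 Ube2h probe (6.912). At GD9:12, exposed replicate 1 was low for Ube2t (7.766) and high for Trim12a (7.957), and exposed replicate 4 was low for Fbxo3 (8.000).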

How the results depend on the processing

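No paired analysis was possible because the labels carry array codes and no replicate numbers shared between groups. Keeping the missing-value placeholders, dropping the intensity filter, masking runs of low probes, and a trended robust variance each left all 11 counts of called members within 1.5 times. With array weights the calls were 1 for arsenic at GD9:00, 37, 35 and 29 in the controls (GD8:15 to GD9:00, GD9:00 to GD9:12, GD8:15 to GD9:12) and 14 and 23 for the first pair of steps in exposed embryos. With code series as a block they were 2, 9 and 1 in the controls and 0 in both exposed comparisons with GD8:15. Fitting only the arrays compared gave 14 for controls and 1 for exposed embryos from GD8:15 to GD9:00, and 13 for exposed embryos from GD8:15 to GD9:12. On the intensities as deposited the counts were 42, 76 and 24 in the controls and 2 and 30 in the first pair of exposed steps. That scaling turned the sign of Fbxo32 at GD8:15 (0.0388), Trim13 (0.33) and Ube2g2 (0.27) at GD9:00, the averages of Trim13 (0.19) and Fbxw7 (0.0106), and Ube2r2 from GD9:00 to GD9:12 in exposed embryos (0.67). Ratios of group medians, with no test, turned Trim13 (0.41) and Ube2g2 (0.37) at GD9:00, the averages of Trim13 (0.12) and Fbxo25 (0.0400), Ube2r2 (0.86), and Fbxo16 from GD8:15 to GD9:12 in exposed embryos (0.0202). The cause of these changes was not tested. Leaving out 1 array at a time gave 0 to 0 calls for arsenic at GD8:15, at GD9:12 and on average, and 0 to 1 at GD9:00 and in the F test, the 1 being Rnf138 without control GD9:00 replicate 2. For the stage steps in turn it gave 14 to 24, 6 to 17 and 3 to 9 in the controls and 2 to 7, 4 to 6 and 11 to 20 in exposed embryos. The lowest were without control GD8:15 replicate 4 (14), control GD9:12 replicate 2 (6 and 3), arsenic GD9:00 replicate 1 (2) and arsenic GD9:12 replicate 2 (11). Member counts in this section are given without the share of all probes called under the same setting, so they do not describe the members as a set. With 3 or 4 arrays a group, the number of arrays limits the precision.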
